A study of Caenorhabditis elegans with 32 samples.

Results

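This report describes whole Caenorhabditis elegans adults at day 12 of adulthood, fed bacteria for RNA interference (RNAi) against met-1 or the empty vector L4440. It uses 4 of the 32 samples of the series, namely the 2 day 12 libraries labelled met-1 RNAi and the 2 day 12 libraries labelled L4440, chosen by their labels. The series asks how trimethylation of histone H3 at lysine 36 and its enzyme gene met-1 relate to gene expression in ageing animals. It holds 20 mRNA libraries and 12 chromatin samples, and the chromatin samples were not analysed here. Every animal in both arms carried glp-1(e2141), a temperature-sensitive allele of a Notch receptor gene, and was raised at the temperature at which it leaves animals largely without germ cells. The labels describe plates of OP50 bacteria with carbenicillin and tetracycline, with food added once before day 12, and poly-A selected mRNA of whole animals was sequenced. The 4 day 2 libraries of the same experiment have the same genotype and the same arms. A separate comparison at day 12 sets glp-1(e2141) controls beside animals that also carry met-1(n4337); it has 4 libraries of its own and no RNAi. The labels do not say how the RNAi bacteria were fed, nor whether the replicates of an arm were separate cultures, so that the p-values reflect only how much these samples vary, and that variation may be technical.

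MET-1 is a SET domain enzyme that adds the trimethyl mark to lysine 36 of histone H3 on genes while they are transcribed. MES-4 is the other H3 lysine 36 methyltransferase of the worm and acts mostly in the germline, where it keeps the mark on genes of the parental germ cells. In feeding RNAi, worms eat bacteria that make double-stranded RNA of the target gene, and Argonaute proteins loaded with small RNAs lower its mRNA.

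The levels are FPKM, the fragments counted on a transcript per length and per number of mapped fragments. Differences between arms are on the log2(FPKM + 1) scale, the met-1-labelled arm minus L4440, with the standard error (SE) of limma's fit. A transcript was called when limma's adjusted p was below 0.05. Relative to the second met-1-labelled library, the libraries held 1.052 and 0.355 fragments in L4440 and 1.299 and 1.0 in the met-1-labelled arm, so the second L4440 library was the shallowest. Between 16762 and 17234 transcripts reached 1 FPKM in the 4 libraries, and across transcripts the replicates correlated at 0.878 in L4440 and 0.91 in the met-1-labelled arm. The summed FPKM was 2515840 and 2585558 in L4440, and 2037725 and 2501564 in the met-1-labelled arm, where the first library was lowest. In whole animals, fewer cells of a type and less RNA per cell cannot be told apart.

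The target of the RNAi, met-1 (chromosome I), was not lower in the libraries labelled with it. Its 2 transcripts, NM_182042 and NM_058939, summed to 10.7 and 29.8 FPKM with L4440, and to 80.1 and 57.1 in the met-1-labelled libraries. Both met-1-labelled libraries stood above both L4440 libraries, against the direction the label gives. The difference was 1.86, and an exact two-sided permutation test over 6 arrangements gave p = 0.333, the smallest p that design allows. Within both ages together, the mean difference was 1.66 with an exact permutation p of 0.0556, the smallest over 36 arrangements. The gap lay in NM_182042, at 10.7 and 24.1 FPKM in L4440 and 76.8 and 52.9 in the met-1-labelled arm. NM_058939 overlapped, at 0.00976 and 5.71 against 3.28 and 4.24. Whether reads of the fed RNA were counted in these levels was not tested. Every direction between arms below is drawn from labels that the met-1 level goes against.

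The second H3 lysine 36 methyltransferase gene, mes-4 (NM_073932, chromosome V), stood lower in the met-1-labelled libraries without passing the test. Its FPKM was 29.7 and 11.4 in L4440, and 2.18 and 2.00 in the met-1-labelled arm. The arms did not overlap, but the L4440 libraries lay far apart, and the difference of −2.66 ± 0.46 had a limma adjusted p of 0.132. At day 2 mes-4 stood at 0.619 and 0.524 in L4440 and 0.586 and 0.162 in the met-1-labelled arm, so a level above 10 FPKM was seen in no library but the L4440 ones of day 12. The separate day 12 animals had 0.702 FPKM in the control and 1.17 in the mutant.

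The list of histone lysine methylation genes, with met-1 and mes-4 among its members, showed no common direction. It also holds the arginine methyltransferase genes prmt-1, prmt-5, prmt-7 and prmt-9. Of 56 transcripts of this list that were tested, limma called 0. At an unadjusted p below 0.05 were 6 (10.7%, against 10.4% of all coding transcripts tested), with mes-4 and NM_182042 of met-1 among them. The arms did not overlap in 11 of the 54 above 0 in all libraries with the met-1-labelled arm higher, and in 10 with it lower. This share was 38.9%, against 42.7% of all coding transcripts above 0 in all libraries. The median difference over the 56 was 0.00. The H3 lysine 9 methyltransferase gene met-2 was among the steadiest, at 11.3 and 11.1 FPKM in L4440 and 11.1 and 11 in the met-1-labelled arm. The SET domain gene set-18 (NM_060371) stood at 13.1 and 10.1 against 17.8 and 16.8, a difference of 0.55 ± 0.19 with an adjusted p of 0.405.

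**Figure D1:**
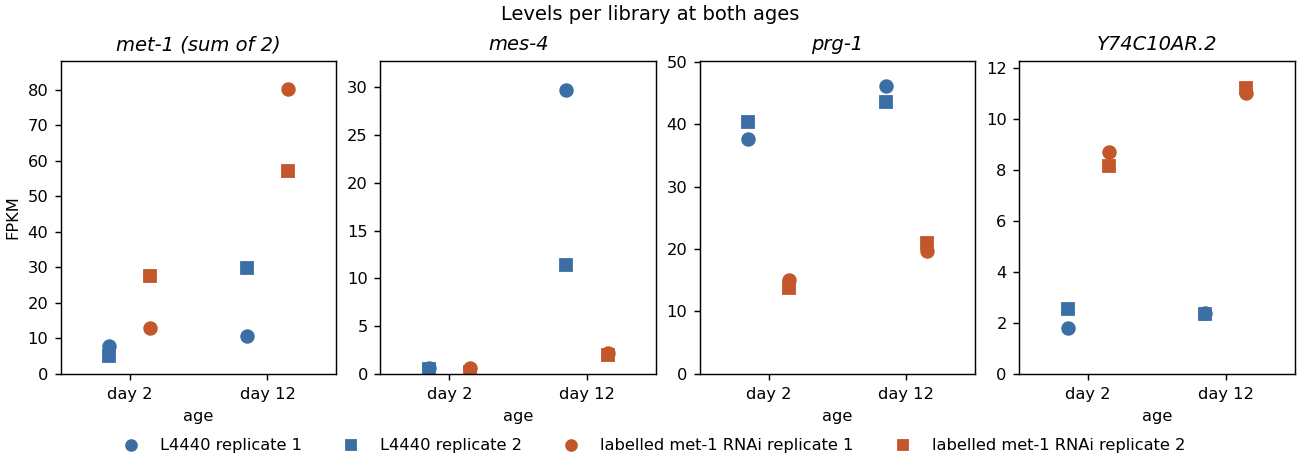
FPKM of met-1 (sum of 2 transcripts), mes-4, prg-1 and Y74C10AR.2 in each of the 8 RNAi libraries, by age, with L4440 in blue, met-1-labelled libraries in orange, and circles and squares for replicates 1 and 2. The arms of met-1 and prg-1 were apart at both ages, in opposite directions, and mes-4 was above 10 FPKM in the L4440 libraries of day 12.

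Few coding transcripts were called between the arms at day 12. Of 15529 coding transcripts measured above 0 in all 4 libraries, 92.8% differed by at most 1 on the log2 scale and limma called 19 (0.122%). The called transcripts were 7 higher (0.0451%) and 12 lower (0.0773%) in the met-1-labelled arm. Of all 16958 coding transcripts tested, 37 were called (0.218%), 21 higher (0.124%) and 16 lower (0.0944%). Over all 18578 transcripts tested, 92 were called (0.495%), 57 higher (0.307%) and 35 lower (0.188%), while 1976 had an unadjusted p below 0.05 (10.6%). The count of 19 depended on which libraries set the spread: it was 67 without the first L4440 library of day 12, 8 without either L4440 library of day 2, and 10 and 11 when a met-1-labelled library of day 2 was left out, replicate 1 or 2. Leaving out 1 library at a time, 4 of the 19 stayed called in all 8 fits, and 6 were called in none of them. It was 0 with limma on the 4 day 12 libraries alone, where 1226 of these transcripts had an unadjusted p below 0.05.

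The calls fell into 2 kinds. For 10 of the 19 the gene has 1 coding transcript in the tables, so the value is the level of the gene. For the other 9, the gene has several coding transcripts and the call concerns a single one. Genes with several transcripts supplied 29.5% of all coding transcripts above 0, and 45.5% of the 844 that differed by over 1 with arms that did not overlap. Those 844 were 450 higher (2.9%) and 394 lower (2.54%) in the met-1-labelled arm.

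Among the genes with 1 coding transcript, prg-1 (NM_059720, chromosome I) encodes the Piwi Argonaute that binds piRNAs in the germline. It stood at 46.1 and 43.6 FPKM in L4440, and at 19.7 and 20.9 in the met-1-labelled arm. The replicates were close and the arms far apart, a difference of −1.11 ± 0.12 (limma adjusted p = 0.0338). It was the single one of the 19 also called at day 2, where its FPKM was 37.6 and 40.4 in L4440 and 15.1 and 13.7 in the met-1-labelled arm (difference −1.38, adjusted p = 0.0320). At day 12 the call was lost when any 1 of the 8 libraries was left out (adjusted p = 0.0797 to 0.129). In the separate day 12 animals it was 48.2 FPKM in the control and 14.5 in the met-1 mutant. The summed level of germline markers overlapped between the arms. Their FPKM over 90 transcripts was 704 and 440 in L4440 and 535 and 651 in the met-1-labelled arm. Of the 90, 3 were at 0 in all 4 libraries. Limma called 0 of 48 tested, with 4 at an unadjusted p below 0.05 (8.33%).

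Other small RNA and double-stranded RNA response genes had few such differences. Of 65 such transcripts tested, prg-1 was the one called, 8 had an unadjusted p below 0.05 (12.3%), and the median difference was −0.05. The arms did not overlap for 7 higher and 16 lower of the 61 above 0 in all 4 libraries (37.7%). Among all coding transcripts above 0 the share was 42.7%, with 22.2% higher and 20.4% lower. The uncalled member with the widest gap between the arms was nrde-2, a gene of nuclear RNAi. It stood at 41.1 and 38.8 FPKM in L4440 and 23.3 and 16.3 in the met-1-labelled arm, a difference of −1.0 ± 0.18 that did not pass (adjusted p = 0.141). In the separate animals nrde-2 was 29.9 FPKM in the control and 14.6 in the mutant.

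The most abundant of the called genes was sysm-1 (NM_063536, chromosome II). It stood at 558 and 530 FPKM in L4440, and at 85.3 and 110 in the met-1-labelled arm. Both met-1-labelled libraries were far below both L4440 libraries, a difference of −2.48 ± 0.20 (limma adjusted p = 0.00918). At day 2 the same gene was at 2513.7 to 3589.8 FPKM in all 4 libraries. The control and mutant of day 12 held 853 and 299 FPKM. The call was lost without the second L4440 library of day 12 (adjusted p = 0.0547) and kept in the other 7 fits that left out 1 library each.

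The level of scl-11 (NM_070098, chromosome IV), of the SCP-like family of secreted proteins, was also lower. It was 11.1 and 16.2 FPKM in L4440 and 0.457 and 0.791 in the met-1-labelled arm, a difference of −3.16 ± 0.32 (limma adjusted p = 0.0218) between arms that did not overlap. The separate animals showed 12.5 FPKM in the control and 0.709 in the mutant. F35G12.5 (NM_065532, chromosome III) was 9.74 and 10.3 FPKM in L4440 and 2.50 and 2.84 in the met-1-labelled arm (difference −1.59 ± 0.17, adjusted p = 0.0309), with 6.18 in the control and 1.61 in the mutant. B0238.13 (NM_072000, chromosome V) stood at 44.8 and 49.4 FPKM against 12.3 and 7.74 (difference −2.16 ± 0.26, adjusted p = 0.0449). In all 3 genes each met-1-labelled library lay below each L4440 library, and for B0238.13 the control and mutant were closer, at 8.77 and 6.40 FPKM. Leaving out 1 library at a time, scl-11 stayed called in 3 of 8 fits (adjusted p = 0.0367 to 0.119), and F35G12.5 (0.0633 to 0.12) and B0238.13 (0.0547 to 0.182) in none.

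The remaining gene of this kind that was lower, pals-10 (NM_001276636, chromosome I), belongs to the pals family, several members of which are induced by intracellular pathogens. Its FPKM was 17.8 and 11.7 in L4440 and 1.60 and 2.08 in the met-1-labelled arm (difference −2.45 ± 0.28, limma adjusted p = 0.0386). It was listed at 0 in all day 2 libraries. The 4 day 12 libraries stood in the ratio of 9, 2, 1 and 1 fragments, as smallest whole numbers within 0.05. The separate animals went the other way, with 2.48 FPKM in the control and 97.8 in the mutant. Of the 8 fits without 1 library, the call held in the one without the second L4440 library of day 12 (adjusted p = 0.0414 to 0.136).

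Of the genes with 1 coding transcript that were higher, Y74C10AR.2 (NM_058586, chromosome I) had the closest replicates. It stood at 2.39 and 2.36 FPKM in L4440 and 11 and 11.2 in the met-1-labelled arm (difference 1.84 ± 0.21, limma adjusted p = 0.0340). The day 2 libraries lay alike, at 1.81 and 2.55 in L4440 and 8.68 and 8.15 in the met-1-labelled arm, which did not pass at that age (adjusted p = 0.137). Control and mutant at day 12 held 2.81 and 5.54 FPKM. The day 12 call was lost without any 1 of the 8 libraries (adjusted p = 0.0589 to 0.147).

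The F-box gene fbxa-170 (NM_075908, chromosome X), of a family of substrate adaptors of ubiquitin ligases, was at 0.614 and 0.227 FPKM in L4440 and 6.72 and 6.30 in the met-1-labelled arm (difference 2.41 ± 0.26, limma adjusted p = 0.0296). The steps between its low values corresponded to 8 and 1 fragments for L4440 and to 108 and 78 for the met-1-labelled arm, as smallest whole numbers. W04G5.8 (NM_060571, chromosome I) was at 0.479 and 0.709 FPKM against 6.59 and 8.48 (difference 2.42 ± 0.25, adjusted p = 0.0267), or 6 and 3 against 102 and 101 fragments. Both genes were low in all day 2 libraries, at 0.492 FPKM or less. Both were also higher in the mutant, at 16.1 against 1.24 FPKM in the control for fbxa-170 and 5.31 against 1.24 for W04G5.8. With 1 library left out, fbxa-170 stayed called only without the first L4440 library of day 12 (adjusted p = 0.0301 to 0.0992) and W04G5.8 in no fit (0.0543 to 0.0850).

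The gene hpo-10 (NM_065873, chromosome III), named for hypersensitivity to a pore-forming toxin, had the largest difference of this kind. It was 0.147 and 0.176 FPKM in L4440 and 18.7 and 8.47 in the met-1-labelled arm (difference 3.55 ± 0.44, limma adjusted p = 0.0483). The arms did not overlap, and the met-1-labelled libraries were over 1 log2 unit apart. In the separate animals it was 3.80 FPKM in the control and 0.0361 in the mutant, the opposite direction. With 1 library left out, it stayed called only where replicate 2 of the day 12 met-1-labelled arm was missing (adjusted p = 0.0492 to 0.174). When transcripts were summed per gene before the fit, hpo-10 and prg-1 fell just short (adjusted p = 0.0520 and 0.0513) and the other 8 of these 10 genes stayed called.

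Set against the mutant, 8 of these 10 genes had the same direction in both met-1 comparisons, the exceptions being pals-10 and hpo-10. The mutant values are 1 per group for both libraries together, with no spread and no test. Across all 12826 genes above 0 in the 4 RNAi libraries and at 1 FPKM or more in the control or the mutant, 64.4% had the same direction.

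**Figure D2:**
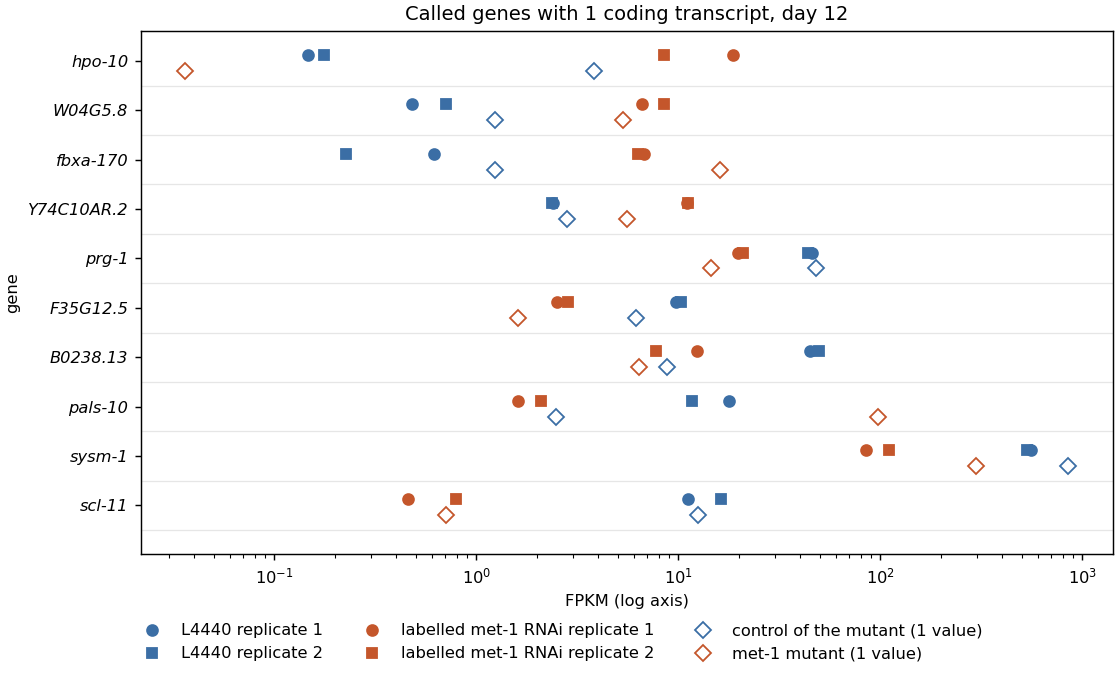
FPKM at day 12 on a log axis for the 10 called genes with 1 coding transcript, with filled circles and squares for the RNAi replicates and open diamonds for the authors' pooled value of the control (blue) and the met-1 mutant (orange). The arms were apart in each gene, and the diamonds lay in the opposite order for pals-10 (2.48 and 97.8) and hpo-10 (3.80 and 0.0361).

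The 9 calls in genes with several coding transcripts went with little difference in the gene as a whole. The median size of the difference was 3.44 for the called transcript and 0.21 for the sum of the gene's coding transcripts. As sums, limma called 0 of these 9 genes, 2 had an unadjusted p below 0.05, 6 kept the direction of the transcript, and the largest difference was 0.77 in size. Summing was chosen after the data were seen.

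Muscle calcium handling gives an example. The gene sca-1 encodes the calcium pump of the endoplasmic and sarcoplasmic reticulum, and its transcript NM_066985 (chromosome III) stood at 0.0110 and 0.0149 FPKM in L4440 and 14.7 and 13.4 in the met-1-labelled arm. Each met-1-labelled library was far above each L4440 one (difference 3.89 ± 0.23, limma adjusted p = 0.00480). The other coding transcripts carried most of the gene: NM_066984 was at 203 and 270 against 207 and 206 FPKM, and NM_001129236 at 164 and 142 against 140 and 196. The gene sum differed by 0.00.

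The neuropeptide gene nlp-7 (chromosome X) showed the reverse order. Its transcript NM_001270134 was at 26.2 and 43.1 FPKM in L4440 and 0.00687 and 0.0371 in the met-1-labelled arm (difference −5.08 ± 0.31, limma adjusted p = 0.00519). The other transcript, NM_001270133, was at 5.18 and 4.69 FPKM in L4440 and 20.0 and 24.9 in the met-1-labelled arm. The sum differed by −0.77 and did not pass (adjusted p = 0.385).

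The largest difference among these 9 was in Y11D7A.10 (chromosome IV), whose transcript NM_001268451 stood at 38.5 and 51.7 FPKM in L4440 and 0.0246 and 0.0542 in the met-1-labelled arm (difference −5.46 ± 0.25, limma adjusted p = 0.00249). Its main transcript NM_001268452 was at 132 and 255 FPKM against 109 and 133, and the gene sum differed by −0.74. The phosphatase gene pptr-2 (chromosome V), for a B56-type regulatory subunit of protein phosphatase 2A, had the called transcript NM_073406 at 0.0133 and 0.0148 against 10.6 and 9.35 FPKM (difference 3.44 ± 0.23, adjusted p = 0.00645). Its most abundant transcript NM_073407 was at 35.4 and 20.0 against 26.5 and 30.1 FPKM, and the sum differed by 0.21. Like sca-1 and nlp-7, Y11D7A.10 and pptr-2 stayed called in all 8 fits without 1 library.

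The next 3 genes differ in what they encode. The transcript NM_171016 of ceh-38, a ONECUT homeobox gene, was at 6.02 and 8.88 FPKM in L4440 and 0.00126 and 0.00233 in the met-1-labelled arm (difference −3.06 ± 0.27, limma adjusted p = 0.0142). The gene egl-27 encodes a protein related to the MTA subunits of chromatin remodelling complexes, and its transcript NM_001026740 was at 5.02 and 5.19 against 0.00201 and 0.00250 FPKM (difference −2.61 ± 0.24, adjusted p = 0.0156). The transcript NM_001268775 of lev-1, a subunit of the levamisole-sensitive acetylcholine receptor of muscle, was at 3.51 and 5.26 against 0.143 and 0.00117 FPKM (difference −2.31 ± 0.28, adjusted p = 0.0438). The arms did not overlap in any of these 3 transcripts, and their gene sums differed by −0.38, −0.22 and 0.18. With 1 library left out, ceh-38 stayed called in 2 of 8 fits (highest adjusted p = 0.0614), egl-27 in 4, lost without each day 2 library (highest 0.0579), and lev-1 in the one without the first L4440 library of day 12 (highest 0.122).

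F19B6.1 and math-33 complete the set. The transcript NM_069950 of F19B6.1 (chromosome IV) was at 7.81 and 11 against 0.00739 and 0.00216 FPKM (difference −3.36 ± 0.33, limma adjusted p = 0.0211). The gene math-33 encodes a MATH domain deubiquitinase, the worm counterpart of human USP7. It has 8 coding transcripts, and the called one, NM_001269368 (chromosome V), was at 0.0109 and 0.00681 FPKM in L4440 and 23.4 and 10.4 in the met-1-labelled arm (difference 4.05 ± 0.47, adjusted p = 0.0407). The sums of these genes differed by −0.21 and −0.17. With 1 library left out, F19B6.1 stayed called in 3 of 8 fits (highest adjusted p = 0.116) and math-33 in none (0.0629 to 0.165).

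**Figure D3:**
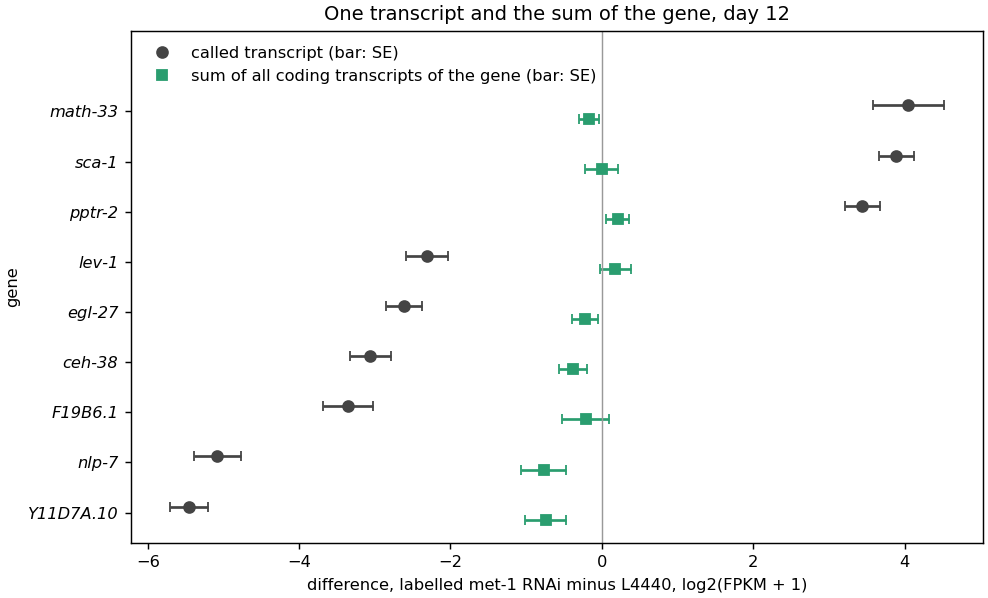
Difference at day 12 (met-1-labelled minus L4440, log2(FPKM + 1), bars are SE) for the 9 called transcripts of genes with several coding transcripts (circles) and for the sum of all coding transcripts of the same gene (squares). The circles lay between −5.46 and 4.05 and the squares between −0.77 and 0.21.

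Uncalled transcripts that were at 10 FPKM or more in both met-1-labelled libraries, and had the widest gaps to L4440, were of the same kind. They belong to the calcineurin B gene cnb-1, the chromatin remodelling gene nurf-1, the CDK inhibitor gene cki-2, W08G11.3 and alfa-1, the worm counterpart of human C9orf72. The transcript of cnb-1 was at 0.217 and 0.206 FPKM in L4440 and 44.0 and 118 in the met-1-labelled arm, and that of nurf-1 at 0.0298 and 0.0256 against 16.4 and 15.5. At day 2 replicates of 1 arm could lie far apart, as for cnb-1 in L4440 at 34.6 and 0.106 FPKM. The adjusted p-values were 0.287 to 0.449, and the gene sums differed by −0.06 to 0.28.

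Coding transcripts listed at 0 in both libraries of an arm were considered apart, since an exact 0 can be a failed estimate. A fitted difference against 0 depends on the pseudocount, so no size of change is read from it. K09E3.4 (NM_078372, chromosome X) was at 107 and 159 FPKM in L4440, at 0 in both met-1-labelled libraries and at 0 in all day 2 libraries, and was called lower (limma adjusted p = 0.00143). Its L4440 values stood in the ratio of 2 fragments to 1. It was at 13.2 FPKM in the control and 0 in the mutant. C01A2.9 (NM_001128940, chromosome I) was at 0 in L4440 and at 32.3 and 36.7 FPKM in the met-1-labelled arm (adjusted p = 0.00148), with 2.51 in the control and 91.3 in the mutant.

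The transcript NM_001269723 of T09F5.20 (chromosome V) was at 0 in L4440 and at 17.2 and 56.4 FPKM in the met-1-labelled arm (limma adjusted p = 0.0284), in the ratio of 2 fragments to 5. It was at 11.4 FPKM in the control and 7.59 in the mutant. The 2 coding transcripts of the gene summed to 5.84 and 2.88 against 21.8 and 60.5 FPKM, and the sum was not called (limma adjusted p = 0.113). NM_001269543 (chromosome V), which has no symbol in the tables used here, was at 31.3 and 30.9 FPKM in L4440 and 0 in the met-1-labelled arm (adjusted p = 0.00572), in the ratio of 3 fragments to 1. The highest values of all, 3128.2 and 2584.3 FPKM against 0 in L4440, were those of NM_001269261 (chromosome V). It was not called (adjusted p = 0.301), and at day 2 its L4440 libraries alone ranged from 0 to 1407.9 FPKM. Also uncalled were NM_001268733 at 113 and 264 and C31A11.13 at 18.1 and 23.5 FPKM, both at 0 in L4440. Uncalled too were transcripts at 0 in both met-1-labelled libraries. In L4440, NM_001128980 of F13G3.10 was at 236 and 35.3, Y17G9B.2 at 24.9 and 73.8, and NM_001136329 of Y6B3B.9 at 6.10 and 50.4 FPKM. F13G3.10 and Y6B3B.9 have 2 coding transcripts each and were not at 0 as genes. Their sums in the met-1-labelled arm were 43.3 and 38.3 FPKM for F13G3.10, and 16.6 and 17.3 for Y6B3B.9.

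Calls among the non-coding transcripts came almost all from values of 0 in an arm. Of 1620 non-coding transcripts tested, limma called 55 (3.4%), 36 higher (2.22%) and 19 lower (1.17%) in the met-1-labelled arm. Of these 55, 54 were listed at 0 in both libraries of one arm. In all 54 the remaining values stood in a ratio of whole fragments within 1%, and in 37 of them (68.5%) the ratio was that of equal numbers. Such a ratio gives the smallest possible numbers, not those counted, and the test favours replicates that are close. F40E3.9 (chromosome I) was at 1548.4 and 2002.4 FPKM in the met-1-labelled arm and 0 in L4440 (adjusted p = 0.000117), a ratio of 1 fragment to 1. The exception, above 0 in all 4 day 12 libraries though at 0 in all day 2 libraries, was M163.12 (chromosome X), at 468 and 462 FPKM in L4440 and 126 and 164 in the met-1-labelled arm (difference −1.68 ± 0.17, adjusted p = 0.0215).

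The other non-coding transcripts named by the rule were at 0 in an arm. F18H3.7 (chromosome X) was at 425 and 552 FPKM and F26D11.18 (chromosome V) at 110 and 284 in the met-1-labelled arm (limma adjusted p = 0.000263 and 0.00507). The transcript of smy-1 (chromosome IV) was at 136 and 707, and was also called at day 2, at 148 and 143 FPKM in the met-1-labelled arm and 0 in L4440 (adjusted p = 0.0459). Y51A2D.26 (chromosome V) was at 290 and 429, F21F12.2 (chromosome I) at 59.2 and 175, and B0350.72 (chromosome IV) at 40.6 and 240 FPKM in L4440 and 0 in the met-1-labelled arm (adjusted p = 0.000558, 0.00834 and 0.0407).

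Gene groups were compared by how often the arms did not overlap, which was the case for 42.7% of all coding transcripts above 0 in all libraries, 22.2% higher and 20.4% lower in the met-1-labelled arm. Unless stated otherwise, the median of a list was taken over all its transcripts tested. The proteasome, which degrades ubiquitin-tagged proteins, lay mostly on the higher side. Of its 35 subunit transcripts, 27 were higher in both met-1-labelled libraries and 1 was lower, with a median difference of 0.24 against 0.03 for all coding transcripts. Limma called 0 of them, and 6 had an unadjusted p below 0.05 (17.1%, against 10.4% of all coding transcripts), all higher. The ATPase subunit transcript NM_001026942 of rpt-4 was at 60.8 and 110 FPKM in L4440 and 177 and 184 in the met-1-labelled arm (difference 1.13 ± 0.28, adjusted p = 0.262). Summed over its 2 coding transcripts, rpt-4 was at 136 and 125 against 177 and 198 FPKM, a difference of 0.52 (limma adjusted p = 0.279). The summed FPKM of the list was 4296.5 and 4382.1 in L4440 and 4914.9 and 5385.3 in the met-1-labelled arm. With each library centred on its median, 26 of the 35 were higher in both met-1-labelled libraries.

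The small heat shock proteins, chaperones that hold unfolding proteins, also lay mostly on the higher side. Of 16 transcripts above 0 in all libraries, 10 were higher in both met-1-labelled libraries and 0 lower, and the median difference over 17 tested was 0.55. Limma called 0, with 2 at an unadjusted p below 0.05 (11.8%). The gene hsp-16.2 was at 160 and 161 FPKM in L4440 and 269 and 597 in the met-1-labelled arm (difference 1.31 ± 0.71, adjusted p = 0.588). The separate animals had 193 FPKM in the control and 883 in the mutant. The larger chaperones did not follow, with 14 higher and 8 lower of 65 and a median of 0.01.

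Genes of detoxification differed between families. Of 69 cytochrome P450 transcripts, 30 were lower and 5 higher in both met-1-labelled libraries, with a median difference of −0.35. In the glucuronosyltransferases 21 were lower and 8 higher of 65 (median −0.09). The glutathione S-transferases had 13 higher and 4 lower of 46 (median 0.29). Limma called 0 in each of the 3 families, with 11, 11 and 10 at an unadjusted p below 0.05 (15.9%, 16.9% and 21.3%). The P450 gene cyp-29A4 was at 12.8 and 11.3 FPKM in L4440 and 4.95 and 4.90 in the met-1-labelled arm (adjusted p = 0.262), ugt-1 at 71.8 and 72.2 against 20.4 and 28.5 (adjusted p = 0.280), and gst-13 at 98.4 and 117 against 43.4 and 54.2 (adjusted p = 0.132). These 3 were each lower in both met-1-labelled libraries, gst-13 against the direction of most of its family.

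Proteases of the lysosome held a large difference that missed the threshold. The aspartyl protease gene asp-18 (NM_075252, chromosome V) was at 840 and 891 FPKM in L4440 and 28 and 90.3 in the met-1-labelled arm, a difference of −4.07 ± 0.53 (limma adjusted p = 0.0613). It was at 1.27 FPKM or less in all day 2 libraries. The separate animals had 517 FPKM in the control and 13.4 in the mutant. Of the 29 transcripts of this list, 12 were lower and 1 higher in both met-1-labelled libraries, and the median difference was −0.27. Limma called 0 of the 29, with 6 at an unadjusted p below 0.05 (20.7%).

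Energy metabolism and translation had small differences. In oxidative phosphorylation 20 of 55 transcripts were lower and 2 higher in both met-1-labelled libraries (median −0.15). Limma called 0 of the 55, with 5 at an unadjusted p below 0.05 (9.09%). Ribosomal protein transcripts had 5 lower and 1 higher of 75 (median −0.16, or −0.05 with quantile normalization). Limma called 0 of the 75, with 1 at an unadjusted p below 0.05 (1.33%). Their summed FPKM was 378517 and 412449 in L4440 and 293141 and 442812 in the met-1-labelled arm, so the met-1-labelled libraries lay on both sides of L4440. The yolk protein gene vit-4, of 2 vitellogenins tested, was at 285 and 384 FPKM in L4440 and 139 and 112 in the met-1-labelled arm (difference −1.40 ± 0.35, adjusted p = 0.268).

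Immune effectors and several large families had more transcripts with lower than with higher values. Of 114 antimicrobial effector transcripts above 0 in all libraries, 35 were lower and 12 higher, and of 130 tested limma called the one of hpo-10, with 11 at an unadjusted p below 0.05 (8.46%, below the 10.4% of all coding transcripts). The saposin-like gene spp-27 was at 287 and 227 FPKM in L4440 and 111 and 82.4 in the met-1-labelled arm (adjusted p = 0.293). C-type lectins had 27 lower and 16 higher of 86. They were balanced at an unadjusted p below 0.05, with 10 higher and 11 lower (21.6% of 97 tested), and limma called 0. Their gene clec-18 was at 16.3 and 72.9 FPKM against 1.88 and 1.79 (difference −3.66 ± 0.65, adjusted p = 0.139). Neuropeptides had 31 lower and 11 higher of 90, F-box genes 48 lower and 25 higher of 137, and nuclear hormone receptors 64 lower and 32 higher of 218. In these 3 families limma called 1, 1 and 0 of 90, 141 and 230 transcripts tested. At an unadjusted p below 0.05 were 10, 18 and 18 (11.1%, 12.8% and 7.83%, against 10.4% of all coding transcripts).

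Markers of tissues differed in their balance. Body wall muscle had 21 higher and 4 lower of 61 (median 0.12), neurons 26 higher and 11 lower of 89 (median 0.09, or 0.00 with quantile normalization), and the intestine 5 higher and 11 lower of 42 (median −0.08). Embryonic genes had 6 higher and 3 lower of 27. At an unadjusted p below 0.05 were 4.48% of muscle, 8.25% of neuron, 11.9% of intestine and 10.3% of embryonic transcripts tested. The share was 10.4% for all coding transcripts. In these lists limma called the sca-1 transcript of muscle alone. The germline list was 6 higher and 9 lower of 41. In it, transcript NM_058280 of the RNA-binding protein gene mex-3 was at 7.07 and 10.6 FPKM in L4440 and 26.7 and 23.2 in the met-1-labelled arm (difference 1.42 ± 0.25, limma adjusted p = 0.132). The 2 coding transcripts of mex-3 summed to 10.9 and 10.6 against 26.7 and 27.9 FPKM, which did not pass either (limma adjusted p = 0.0549). Sperm genes, which germline-depleted animals should largely lack, had 11 higher and 4 lower of 27 and a median of 0.24. Their summed FPKM was 772 and 758 in L4440 and 980 and 1376.7 in the met-1-labelled arm, and 34 of 106 were at 0 in all 4 libraries. Limma called 0 of 41 sperm transcripts tested, with 8 at an unadjusted p below 0.05 (19.5%). The sperm gene nspe-7 was at 1.90 and 11.2 against 41.5 and 135 FPKM (limma adjusted p = 0.217).

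Histones had 7 higher and 1 lower of 23 above 0 in all libraries (34.8%, against 42.7% of all coding transcripts). The median was 0.24 over these 23 and 0.41 over the 33 tested, or 0.27 with quantile normalization. Their summed FPKM overlapped, at 4830.5 and 5007.6 in L4440 and 4859 and 5742.1 in the met-1-labelled arm. Of 74 histone transcripts, 28 were at 0 in all 4 libraries. The vacuolar ATPase had 5 higher and 1 lower of 17 (median 0.11). Lipid metabolism had 34 lower and 15 higher of 107 (median −0.07), antioxidant and metal genes 15 lower and 7 higher of 38 (median −0.15), and insulin pathway and longevity factors 14 lower and 8 higher of 44 (median −0.04). Limma called 0 in these 5 lists, with 4, 1, 22, 5 and 10 at an unadjusted p below 0.05 (12.1%, 5.88%, 19.8%, 12.8% and 21.7%). Cuticle collagens had 20 higher and 16 lower of 77, and their median of 0.08 turned to −0.06 with quantile normalization.

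**Figure D4:**
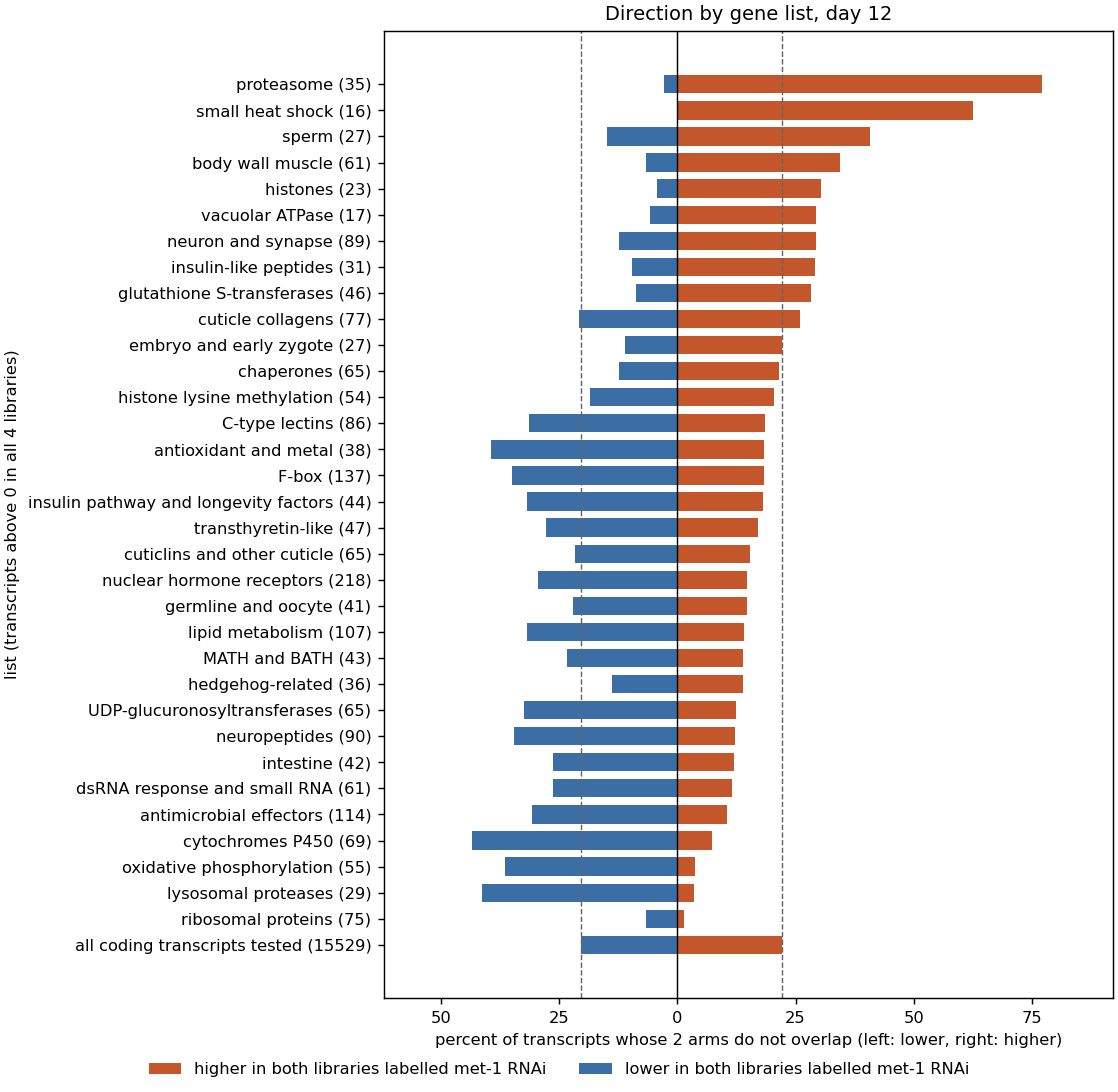
Share of transcripts, among those above 0 in all 4 day 12 libraries (number in brackets), whose arms did not overlap, for lists with at least 10 such transcripts, with higher values in the met-1-labelled arm to the right and lower ones to the left, and dashed lines at the shares of all coding transcripts (22.2% and 20.4%). Of the lists drawn, proteasome and small heat shock reached furthest right, and cytochromes P450, lysosomal proteases and antioxidant genes furthest left; the 2 vitellogenins tested, both lower, are not drawn.

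The met-1 mutant, with its own controls, allowed the direction of each gene to be set beside the RNAi arms. Of 240 genes whose summed level was higher by over 1 in the met-1-labelled arm with arms that did not overlap, 202 were also higher in the mutant (84.2%), against 79.5% of all genes higher in the met-1-labelled arm by any amount. Of 218 genes lower by over 1, 152 were also lower in the mutant (69.7%), against 48.0% of all lower genes. The median gene stood 0.16 higher in the mutant than in its control. Across 12826 genes the differences correlated with Pearson's r of 0.343 and Spearman's rho of 0.392. Genes are not independent replicates and the mutant has 1 value per group, so these figures are descriptions.

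**Figure D5:**
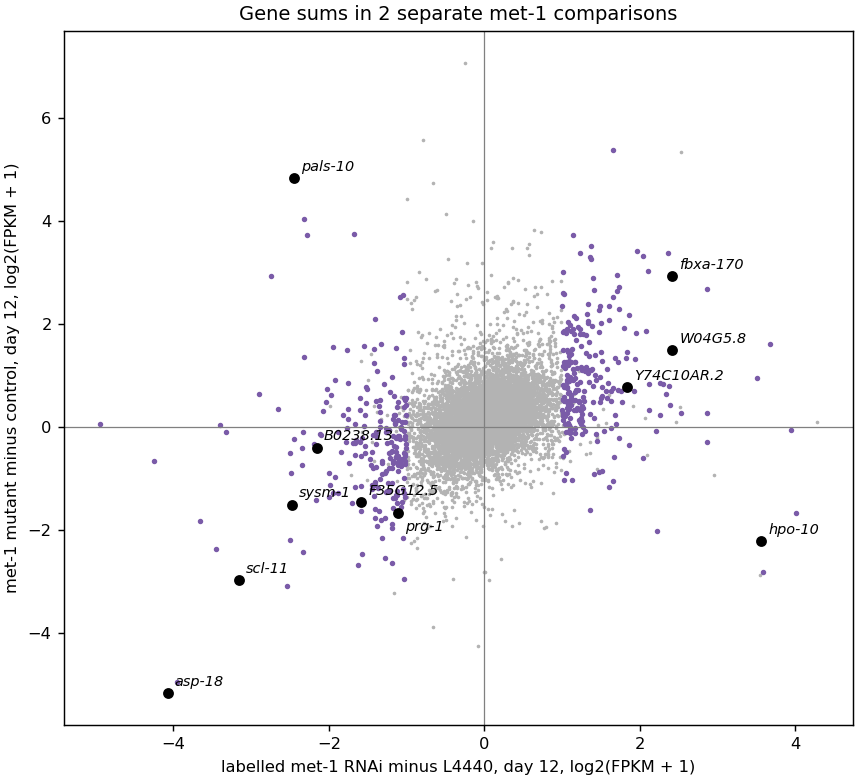
Difference of the summed coding transcripts of each gene at day 12, met-1-labelled minus L4440 (horizontal) against met-1 mutant minus control (vertical), both log2(FPKM + 1), for 12826 genes, with genes over 1 in size and arms apart in purple and named genes in black. Most named genes lay in the lower left and upper right, with pals-10 and hpo-10 in the other corners.

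The day 12 difference was also tested against the day 2 difference of the same experiment. Over all transcripts limma called the difference between ages for 70 of 18578 (0.377%), 50 higher at day 12 (0.269%) and 20 lower (0.108%), while the arms at day 2 gave 30 calls (0.161%), 16 higher (0.0861%) and 14 lower (0.0754%). Of 15326 coding transcripts above 0 in all day 2 libraries, 3 were called at that age (0.0196%). Of the 19 coding transcripts called at day 12, 10 had the same direction at day 2 and 4 differed between the ages, of 6 such among the 15529 (0.0386%). These 4, sca-1, pptr-2, Y11D7A.10 and nlp-7, all belong to genes with several transcripts. The called transcripts of sca-1, pptr-2 and Y11D7A.10 were at 0.0536 FPKM or less in every day 2 library. Of the 10 genes with 1 coding transcript, 9 had the same direction at day 2, with pals-10 at 0 in every day 2 library. The day 2 differences of these 9 ran in size from −0.07 in B0238.13 to 1.58 in Y74C10AR.2, and prg-1 alone was called at that age. The share of all genes with the same direction at both ages is not given here. Across 12826 genes the day 12 and day 2 differences correlated with Pearson's r of 0.127 and Spearman's rho of 0.197. For prg-1 and Y74C10AR.2 the day 12 and day 2 differences were 0.27 ± 0.17 and 0.26 ± 0.29 apart.

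Summed over coding transcripts, 22 of 14253 genes were called (0.154%), 14 higher (0.0982%) and 8 lower (0.0561%) in the met-1-labelled arm. Of these 22 genes, 8 were above 0 in all 4 libraries (0.0595% of 13441), and they are the 8 with 1 coding transcript that kept their call. By chromosome the 19 transcripts were 4 on I, 3 on II, 3 on III, 4 on IV, 3 on V and 2 on X.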

How the data were processed

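The table of the RNAi libraries, deposited by the authors, holds 1 value per library and names no unit; its values were taken as FPKM because Cuffdiff is listed in the submitters' processing notes. Per the file headers, FPKM also fills the tables of controls, mutants and isoforms, with 1 value per group and age for both libraries together. Per the submitters' processing notes, which give no roles, Cuffdiff, TopHat2, TopHat, BWA and CASAVA 1.8 were used. The sources used here give no genome build, annotation, strandedness or scaling between libraries, so no coordinates are given and overlapping or antisense genes and near-identical copies are uncertain. Of 46971 transcripts, 1083 with the status HIDATA in the control or mutant table were left out. In these, 563 and 570 values were above 0 in the L4440 libraries of day 12 and 6 and 6 in the met-1-labelled ones. Names were found for 44265 transcripts, 41331 through RefSeq identifiers and 2934 through the names in the authors' isoform data.

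Transcripts with at least 1 FPKM in at least 2 of 8 libraries were tested on log2(FPKM + 1) with the two-sided moderated test of limma 3.58.1 (trend in eBayes) under R 4.3.3, in 1 fit of 4 groups with 2 libraries each, with Benjamini-Hochberg adjustment over all 18578. The scale understates the change of low transcripts. The table gives no read totals; relative depth came from the value of 1 fragment in low non-coding transcripts. No 2 of the 8 libraries held identical values.

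Named transcripts were the called coding ones above 0 in all 4 libraries, up to 12 a direction, filled with uncalled ones of at least 10 FPKM and the widest gap. Added were up to 5 a direction at 0 in one arm, up to 4 called non-coding ones, up to 5 coding ones that differed between ages, called members of each gene list and its uncalled member with the widest gap, and histone lysine methylation genes, met-1 and mes-4. The 34 lists were matched by symbol, and the members and lists were chosen with earlier results of these data known. Other lists, with 0 or 1 called member, had medians between −0.06 and 0.07. Alternatives were pseudocounts of 0.1 and 5, no filter, centring, quantile normalization, array weights, a replicate block, the day 12 libraries alone, other statuses left out, each library left out, and transcripts summed per gene.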

Additional observations from a re-analysis of the deposited data

Results flagged for a closer look

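For 16 of the named transcripts, limma's test of the difference between ages called the day 12 difference between arms apart from the day 2 difference (adjusted p below 0.05); values are the day 12 minus the day 2 difference on the log2(FPKM + 1) scale, and no cause was tested. Where an arm is listed at 0 in both libraries, the value depends on the pseudocount and is no size of change.

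Among coding transcripts above 0 in all 4 day 12 libraries, the value was 3.89 for sca-1, 3.44 for pptr-2, −5.47 for Y11D7A.10, −5.10 for nlp-7 and −3.87 for K08D8.12. All belong to genes with several coding transcripts. At day 2 the transcript of sca-1 was at 0 in every library, that of pptr-2 at 0.013 FPKM or less and that of Y11D7A.10 at 0.0536 or less. For sca-1, pptr-2 and Y11D7A.10 the value thus repeats the day 12 difference. The transcript of nlp-7 was at 16.8 to 26.1 FPKM in the day 2 libraries. K08D8.12 (NM_001268753, chromosome IV) was at 2.99 and 2.48 FPKM in L4440 and 24.8 and 30.8 in the met-1-labelled arm at day 2, and at 59.3 and 49.1 against 27.5 and 28.5 at day 12. The arms of this transcript thus lay in opposite order at the 2 ages, and were apart at each. The sum of the gene differed by −0.24 at day 12.

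For other coding transcripts the value was 8.41 for C01A2.9, 5.83 for NM_001047616, 4.28 for col-184, 3.95 for NM_001267398, −7.04 for K09E3.4 and −4.55 for NM_001269543. C01A2.9 was at 8.47 and 8.68 FPKM in L4440 and 0 in the met-1-labelled arm at day 2, the reverse of its order at day 12. NM_001047616 (chromosome V) was at 11 and 9.39 against 0.871 and 0.0994 FPKM at day 2 and at 0.0178 and 0 against 5.53 and 7.28 at day 12, also a reversed order. The collagen transcript NM_001270293 of col-184 stood at 40.4 and 29.3 against 12.6 and 11.6 FPKM at day 2 and at 0 and 0 against 5.43 and 7.02 at day 12, with the ratio of 1 fragment to 1 in the latter pair. It is 1 of 2 coding transcripts of col-184. As a sum the gene was at 797 and 701 against 827 and 745 FPKM at day 12, a difference of 0.07. For K09E3.4, at 0 in every day 2 library, the value likewise repeats the day 12 difference. NM_001267398 (chromosome II) was above 0 in the met-1-labelled libraries of day 12 alone, at 11.9 and 17.6 FPKM.

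For the non-coding transcripts, all at 0 in every day 2 library and in an arm at day 12, the value repeats the day 12 difference and adds nothing to it; it was 10.78 for F40E3.9, 8.92 for F18H3.7, 7.47 for F26D11.18, −8.47 for Y51A2D.26 and −6.69 for F21F12.2.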

How the results depend on the processing

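The calls depended on the spread that limma could estimate from 2 libraries a group. By limma, the 92 calls at day 12, the 19 coding calls above 0 in all 4 libraries and the 70 calls of the difference between ages became 147, 29 and 109 without a filter on low values, and 22, 8 and 8 with transcripts summed per gene. With the day 12 libraries alone 4 and 0 were called by limma. With the replicate number as a block all 3 counts were 0, with 2032 transcripts at an unadjusted p below 0.05. Across transcripts, same-numbered libraries deviated together with a correlation of −0.0203 at day 12 and 0.131 at day 2. With 2 libraries a group, these values cannot show whether the replicate numbers pair the samples, and the labels do not say. Leaving out 1 library each gave 68 to 216, 8 to 67 and 16 to 144 calls, the highest without the first L4440 library of day 12. A pseudocount of 0.1 left 14 calls of the difference between ages. The summed met-1 difference was 1.15 to 2.56 without 1 library each.

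Sharing was partial: of the 19 coding calls, 11 were kept with a pseudocount of 0.1, 16 with 5, 13 with quantile normalization (3 higher and 14 lower among its 17 calls) and 16 with array weights. Through all 8 fits without a library, 4 calls held, those of sca-1, pptr-2, Y11D7A.10 and nlp-7. Among named transcripts the direction turned with transcripts summed per gene for math-33 (−0.17), sca-1 (0.00), cnb-1 (−0.06), lev-1 (0.18), flp-11 (0.01) and unc-22 (−0.27), and for NM_058939 of met-1 between −0.50 and 2.23 without 1 library each, around 0.86 with all libraries. Of the 92 calls, 68 were listed at 0 in both libraries of an arm, where depth limits what can be compared.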
